A study of Homo sapiens with 27 samples.

Results

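The comparison described here follows MCF10A cells through continued growth factor starvation. It sets the 3 libraries of the PBS group (phosphate-buffered saline and no ligand, collected at 24 h) against the 3 libraries of the T0 group (collected at 0 h), 6 of the 27 libraries of the series. The members were chosen by their labels alone. MCF10A is an established, non-tumorigenic epithelial cell line derived from human breast, and all 27 libraries come from it without genetic modification named in the labels. Before the experiment the cells grew with 5% horse serum, 20 ng/ml epidermal growth factor (EGF), hydrocortisone, cholera toxin and insulin. They were seeded on collagen-1, washed with PBS after 6 h and kept for 18 h in medium free of growth factors, which both groups share. T0 cells were collected at that point. PBS cells were collected 24 h later, at about 42 h without growth factors. The other libraries, also 3 a group, received oncostatin M (OSM), transforming growth factor beta (TGFB) or EGF, singly or combined, for 24 h in fresh medium with 10 ng/ml of each ligand.

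The groups differ in more than starvation time. PBS cells had also been in the dish a day longer than T0 cells, and the protocol describes a change to fresh medium when ligands were given. Time without growth factors, time since seeding, cell density and medium change cannot be told apart in this design. Neither the composition of the growth factor-free medium (serum, insulin or hydrocortisone) nor the origin of the 3 replicates from separate cultures is given in the labels. The p-values therefore measure the spread between libraries of a group, which may be technical. In the main fit that spread was estimated over all 27 libraries and not from the PBS and T0 libraries alone.

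Some background helps to read the results. Epithelial cells deprived of mitogens stop entering the cell cycle. Without signalling from the EGF receptor through ERK and PI3K, cyclin-dependent kinases are not activated. The retinoblastoma family then keeps E2F factors from activating the genes of DNA replication. The DREAM complex, which binds CHR (cell cycle genes homology region) elements, keeps mitotic genes off. Low PI3K and AKT activity also lets FOXO factors enter the nucleus, where they activate genes of cell cycle exit, insulin signalling and nutrient stress. In stratified epithelia, cells that leave the cycle can begin squamous differentiation, in which early keratins, cornified envelope precursors and their cross-linking enzymes are made in order.

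Library totals ran from 35.8 to 43.1 M (mega) estimated counts in PBS and from 39.5 to 48.4 M in T0. The share of counts from mitochondrial genes was 2.85 to 3.06% in PBS and 2.77 to 2.79% in T0, and the 10 most abundant rows took 6.68 to 7.10% and 6.80 to 7.41%. Levels are counts per 1 M counts (CPM) after scaling by the trimmed mean of M-values. Log-scale profiles correlated at 0.986 to 0.988 within a group and at 0.975 to 0.979 between groups, across 16611 rows that passed the filter on low counts. In a principal component analysis of the 6 libraries the first component held 46.8% of the variance and placed the T0 libraries on one side and the PBS libraries on the other. All 12 markers used to check the MCF10A epithelial identity were detected. By the test described below, 10 of them were lower in PBS (against 17.8% of all rows) and 0 higher, with a median log2 fold change of -0.447. Of 10 markers each, 4 leukocyte, 3 fibroblast and 4 endothelial genes had at most 3 counts in every one of the 6 libraries, and those at 0 included CD3D, TYROBP, COL3A1 and CLDN5. Other members were clearly detected: DCN and COL1A1 of the fibroblast list at T0 means of 79.3 and 27.8 CPM, CD14 and CD68 of the leukocyte list at 27.03 and 24.5 CPM, and KDR of the endothelial list at 16.1 CPM. Their part in the results was not tested.

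A row was called when its adjusted p was under 0.05. Unless another tool or fit is named, an adjusted p is from the quasi-likelihood test of edgeR and is adjusted over the 16611 rows by the Benjamini-Hochberg method. Of the rows tested, 32.9% were called, 15.1% higher in PBS and 17.8% lower in PBS, and the median log2 fold change of all rows was -0.0069. These shares are the background for each count of list members that follows. Large changes leaned downward. Of the called rows, 566 were lower by over 2-fold and 170 by over 4-fold, while 300 were higher by over 2-fold and 55 by over 4-fold.

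**Figure D1:**
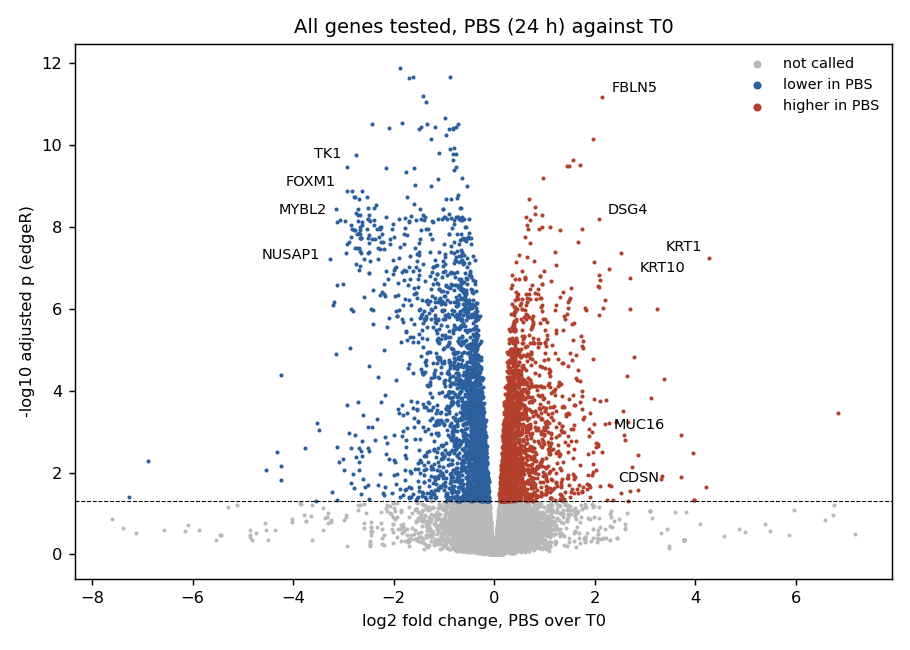
Log2 fold change of PBS over T0 (x axis) against the negative log10 of the adjusted p from edgeR (y axis) for the 16611 rows tested, 1 point a row, with the dashed line at an adjusted p of 0.05. Blue points are lower and red points higher in PBS; cell cycle genes such as MYBL2, FOXM1 and TK1 lie at the left, and KRT1, KRT10 and FBLN5 at the right.

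Genes of mitosis fell together and far. All 33 of the 33 mitosis genes listed were called lower in PBS, against 17.8% of all rows, with log2 fold changes from -3.26 to -0.93 and a median of -2.63. Of these, 32 fell by over 2-fold and 27 by over 4-fold. Their summed level was 1377 to 1822 CPM in the T0 libraries and 254 to 334 CPM in the PBS libraries. MKI67, the gene of the Ki-67 proliferation antigen, was at 149, 129 and 149 CPM in T0 and 23.6, 13.6 and 27.4 CPM in PBS. The groups were far apart, with the lowest T0 library at over 4 times the highest PBS library, and the log2 fold change was -2.73 ± 0.24 (SE; edgeR adjusted p 3.33e-08). In bulk RNA, fewer cells in division and less of these transcripts per cell cannot be told apart.

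The mitosis genes work from entry into mitosis to cell separation, and their falls differed in size. DLGAP5, a protein that stabilizes spindle microtubules (ENSG00000126787, chromosome 14, 55148112 to 55191608, minus strand, GENCODE on GRCh38), was at 27.1, 20.3 and 21.5 CPM in T0 and 3.196, 2.304 and 3.45 CPM in PBS, a log2 fold change of -2.95 ± 0.26 (SE; edgeR adjusted p 4.26e-08). AURKB, the kinase of the chromosomal passenger complex (ENSG00000178999, chromosome 17, 8204733 to 8210600, minus strand), was at 10.3, 9.61 and 10.9 CPM in T0 and 1.37, 1.38 and 1.198 CPM in PBS. Its T0 libraries lay close together, and so did its PBS libraries. BIRC5 (survivin), another subunit of that complex, was at 44.2, 32.97 and 34.4 CPM in T0 and 5.79, 3.42 and 5.58 CPM in PBS. The same order held for CCNB1, the cyclin that drives mitotic entry, which was at 84.5, 66.3 and 71.7 CPM and then 13.9, 11.1 and 14.8 CPM. Its partner kinase CDK1 fell by 2.11 ± 0.21 (SE) on the log2 scale, less than the list median. The smallest fall of the list was in ECT2, an exchange factor for RhoA at the cleavage furrow, at 48.03, 41.9 and 40.6 CPM in T0 and 23.5, 22.8 and 22.3 CPM in PBS.

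Among all rows with a mean of at least 5 CPM and groups that did not overlap, the 12 with the lowest log2 fold changes were NUSAP1, TROAP, MYBL2, AURKB, DLGAP5, TK1, FOXM1, BIRC5, HMMR, KIF2C, SHCBP1 and ANLN. NUSAP1, which bundles spindle microtubules, was at 23.4, 14.1 and 12.5 CPM in T0 and 2.05, 1.36 and 1.86 CPM in PBS, so that T0 replicate 1 stood above the other T0 libraries and the PBS libraries lay at 2.05 CPM or less. KIF2C, a kinesin that depolymerizes microtubules at centromeres, and HMMR, a spindle-associated hyaluronan receptor, had log2 fold changes of -2.84 ± 0.24 and -2.86 ± 0.23 (SE). ANLN, the actin-binding scaffold of the cleavage furrow, was at 95.9, 66.8 and 79.1 CPM in T0 and 11.6, 9.77 and 13.5 CPM in PBS.

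**Figure D2:**
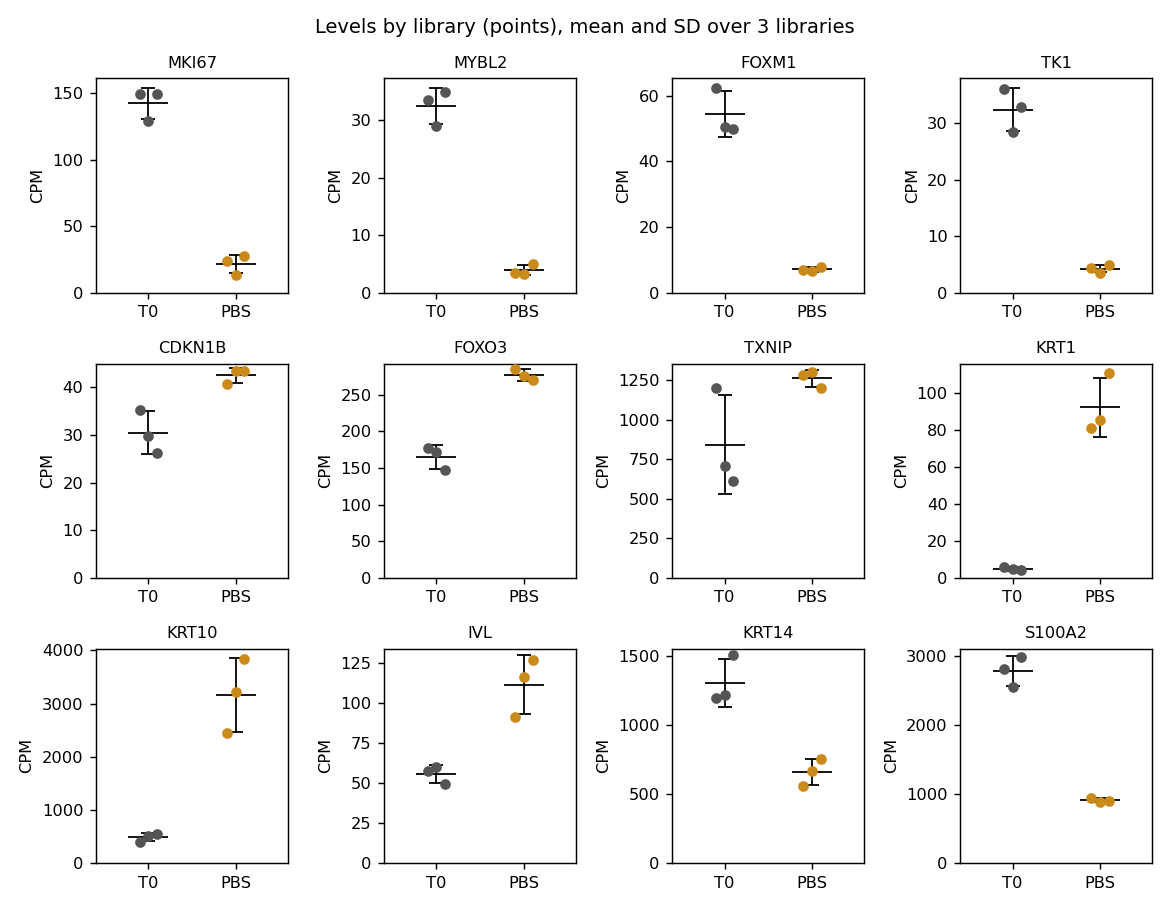
Level in CPM (y axes, linear and from 0) of 12 genes in each T0 and PBS library (points), with the mean and SD over the 3 libraries of a group (horizontal mark and bars). MKI67, MYBL2, FOXM1 and TK1 are lower in every PBS library, KRT1, KRT10 and IVL are higher in every one, and the T0 libraries of TXNIP are spread, with replicate 1 at 1199 CPM.

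Sequence windows around the start sites of mitotic genes were read because CHR and CCAAT elements are textbook features of such promoters. RefSeq windows (GRCh38.p14, 250 bases before to 50 bases after the gene's start in RefSeq) were available for 28 of the 33 mitosis genes. The letters searched, on both strands, were TTTGAA or TTCGAA for CHR elements, CCAAT itself for the CCAAT box, TTCCCGC or TTGGCGC for E2F sites and TGAGTCA or TGACTCA for AP-1 sites. ATTGG, which is CCAAT read on the other strand, can share bases with TTGGCGC. In the mitosis windows, 22 of 28 (78.6%) held CHR letters, 23 (82.1%) held CCAAT and 4 (14.3%) held E2F letters. The shares in the 11510 windows of tested genes were 11.6%, 36.3% and 14.2%. In the windows of all genes called lower in PBS they were 15.1%, 40.2% and 18.5%, and for those lower by over 2-fold 25.6%, 46.6% and 20.7%. Genes called higher stood at 9.87%, 34.9% and 11.1%, and those higher by over 2-fold at 17.2%, 29.4% and 6.37%. The NUSAP1 and DLGAP5 windows are printed because both genes are among the lowest in PBS and both hold CHR letters just after the start. DLGAP5 was picked after its letters were seen. Capitals mark the letters of any motif searched:
NUSAP1 (chr15:41332631-41332930, plus strand): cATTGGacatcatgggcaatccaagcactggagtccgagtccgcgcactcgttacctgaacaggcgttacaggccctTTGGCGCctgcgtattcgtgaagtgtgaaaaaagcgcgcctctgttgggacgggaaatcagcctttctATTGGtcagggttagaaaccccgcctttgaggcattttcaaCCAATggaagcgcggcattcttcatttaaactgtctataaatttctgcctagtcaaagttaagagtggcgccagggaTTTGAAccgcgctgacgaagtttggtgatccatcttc
DLGAP5 (chr14:55191536-55191835, minus strand): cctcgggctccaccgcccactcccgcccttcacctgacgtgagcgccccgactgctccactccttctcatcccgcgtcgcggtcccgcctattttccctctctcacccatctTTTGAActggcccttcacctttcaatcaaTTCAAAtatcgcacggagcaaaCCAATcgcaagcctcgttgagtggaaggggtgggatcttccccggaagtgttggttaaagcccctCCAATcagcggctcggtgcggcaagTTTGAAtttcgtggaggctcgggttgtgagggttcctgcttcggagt
In NUSAP1, CHR letters lie 14 to 19 bases after the start and CCAAT letters, on either strand, begin 249, 105 and 64 bases before it. In DLGAP5, CHR letters lie 4 to 9 bases after the start, and others, on either strand, begin 138 and 109 bases before it. Its CCAAT letters begin 87 and 22 bases before the start. The AURKB window held a single CCAAT, read on the other strand, and no CHR letters. The NUSAP1 and AURKB windows lie inside the GENCODE bounds of their genes, so bases before the GENCODE start were not searched.

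Genes of DNA replication fell too. Of 40 listed, 36 were called lower in PBS (against 17.8% of all rows) and 0 higher, with a median log2 fold change of -1.13. Of these, 26 fell by over 2-fold and 11 by over 4-fold. TK1, the thymidine kinase of the nucleotide salvage pathway (ENSG00000167900, chromosome 17, 78174091 to 78187233, minus strand), was at 36.1, 28.4 and 32.8 CPM in T0 and 4.37, 3.55 and 4.82 CPM in PBS, a log2 fold change of -2.94 ± 0.19 (SE; edgeR adjusted p 3.45e-10). CDC45, a subunit of the replicative helicase, was at 8.07, 5.67 and 7.98 CPM in T0 and 1.15, 0.861 and 0.929 CPM in PBS. RRM2, the regulated subunit of ribonucleotide reductase, was at 54.4, 45.4 and 55.3 CPM in T0 and 9.39, 6.22 and 9.05 CPM in PBS. In each of these genes the lowest T0 library stood at more than 4 times the highest PBS library.

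Changes within the list differed in size. Among the origin licensing and firing factors, MCM10 was at -2.85 ± 0.33, GINS2 at -2.51 ± 0.22, CDT1 at -2.16 ± 0.17, ORC1 at -2.02 ± 0.17 and CDC6 at -1.96 ± 0.23 (log2 fold change ± SE). The MCM2 to MCM7 subunits of the helicase, which licensing loads, ran from -1.50 (MCM5) to -0.56 (MCM4). PCNA, the sliding clamp, was at 52.6, 49.1 and 52.3 CPM in T0 and 28.4, 30.6 and 29.2 CPM in PBS, a log2 fold change of -0.80 ± 0.12 (SE). The members that did not pass were POLD3 (-0.16 ± 0.084), POLE (-0.068 ± 0.073), and the single-strand binding subunits RPA1 (-0.10 ± 0.054) and RPA2 (0.0071 ± 0.077). RPA2, at 28.7, 26.8 and 29.6 CPM in T0 and 27.7, 31.2 and 26.4 CPM in PBS, had overlapping groups.

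Windows of the replication genes were read in the same way. Of 33 RefSeq windows, 23 (69.7%) held E2F letters, 2 (6.06%) CHR letters and 20 (60.6%) CCAAT. The CDC45 and DTL windows are printed because they differ in E2F letters: DTL, a substrate receptor of the ubiquitin ligase that degrades CDT1, has E2F letters next to the start, and CDC45 has CCAAT repeats and none of the E2F letters searched. DTL was picked after its letters were seen, and its level was 20.9, 17.99 and 22.6 CPM in T0 and 3.82, 2.67 and 3.74 CPM in PBS.
CDC45 (chr22:19479670-19479969, plus strand): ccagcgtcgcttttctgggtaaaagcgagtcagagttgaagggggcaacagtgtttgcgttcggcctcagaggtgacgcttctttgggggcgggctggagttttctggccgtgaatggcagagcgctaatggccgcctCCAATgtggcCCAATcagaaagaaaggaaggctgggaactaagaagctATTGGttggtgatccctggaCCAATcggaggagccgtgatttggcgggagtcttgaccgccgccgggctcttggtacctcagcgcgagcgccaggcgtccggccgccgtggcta
DTL (chr1:212035498-212035797, plus strand): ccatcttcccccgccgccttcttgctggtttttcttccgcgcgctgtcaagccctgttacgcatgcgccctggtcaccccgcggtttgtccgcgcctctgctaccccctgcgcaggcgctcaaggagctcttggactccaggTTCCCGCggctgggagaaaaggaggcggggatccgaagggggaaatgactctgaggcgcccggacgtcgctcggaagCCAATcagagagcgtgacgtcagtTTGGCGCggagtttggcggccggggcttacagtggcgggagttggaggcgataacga
In DTL the E2F letters begin 108 and 7 bases before the start, and in CDC45 the 4 CCAAT matches begin 112, 102, 64 and 44 bases before it. The TK1 window held none of the letters searched. The CDC45 window lies inside the GENCODE bounds of its gene, so bases before the GENCODE start were not searched. Only exact letters were counted, so near matches to E2F letters do not show. A match is a description of the window and not a site shown to be bound.

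**Figure D3:**
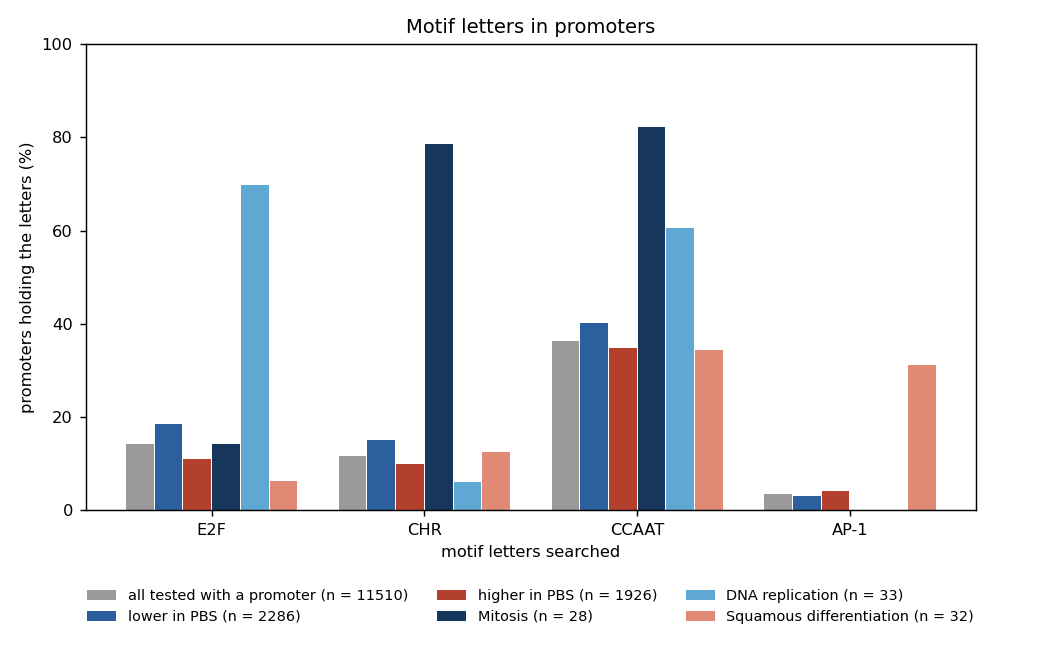
Share of RefSeq promoter windows (y axis, percent, from 0) that hold the letters searched for each motif (x axis), by gene set, with the number of windows in the key. Mitosis windows stand at 78.6% for CHR, DNA replication windows at 69.7% for E2F and squamous differentiation windows at 31.2% for AP-1, where all tested genes are at 11.6%, 14.2% and 3.46%.

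The regulators of these genes changed unevenly. Of 20 members of the E2F and retinoblastoma list, 9 were lower in PBS and 0 higher, with a median of -0.17. MYBL2 (B-Myb), the activator of late cell cycle genes (ENSG00000101057, chromosome 20, 43667019 to 43716495, plus strand), was at 33.5, 28.97 and 34.9 CPM in T0 and 3.496, 3.27 and 4.94 CPM in PBS, a log2 fold change of -3.06 ± 0.24 (SE; edgeR adjusted p 6.64e-09). FOXM1, the forkhead factor that partners with it (ENSG00000111206, chromosome 12, 2857680 to 2877174, minus strand), was at 62.4, 50.5 and 49.98 CPM in T0 and 6.97, 6.48 and 7.92 CPM in PBS, a log2 fold change of -2.93 ± 0.20 (SE). Both were lower in every PBS library by a wide margin. E2F7, a repressor of the family, and E2F1, an activator, had log2 fold changes of -1.82 ± 0.21 and -0.54 ± 0.18 (SE). RBL1 (p107), a pocket protein that is itself an E2F target, was at 13.4, 11.6 and 13.1 CPM in T0 and 6.32, 6.22 and 7.48 CPM in PBS. The constitutive members did not pass: RB1 had a log2 fold change of -0.15 ± 0.064 (edgeR adjusted p 0.0649), and RBL2 (p130), the pocket protein of the DREAM complex in resting cells, of 0.084 ± 0.055 (edgeR adjusted p 0.26).

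Cyclins, kinases and inhibitors of the G1 phase fell less. Of 20 listed, 19 were tested (CDKN2B had too few counts), 10 were lower, 1 higher and 8 not called, with a median of -0.31. CCNE2 (cyclin E2) was at 2.39, 2.32 and 3.15 CPM in T0 and 1.17, 1.01 and 1.05 CPM in PBS, a log2 fold change of -1.27 ± 0.22 (SE). CDC25A, the phosphatase that activates CDK2, and CDK2 itself had log2 fold changes of -0.996 ± 0.20 and -0.75 ± 0.091 (SE). The one member that rose was CDKN1B (p27), an inhibitor of cyclin E and CDK2 that accumulates in resting cells, at 35.3, 29.9 and 26.3 CPM in T0 and 40.7, 43.5 and 43.4 CPM in PBS (log2 fold change 0.48 ± 0.10; edgeR adjusted p 0.000386). Every PBS library was above every T0 library, although the rise was under 2-fold. CCND1 (cyclin D1), at 42.1, 43.6 and 57.1 CPM in T0 and 41.8, 43.3 and 40.6 CPM in PBS, did not pass (edgeR adjusted p 0.327), nor did CDKN1A (p21; 0.16 ± 0.12; edgeR adjusted p 0.324). T0 replicate 3 had the highest CCND1 level, and the other libraries of both groups lay between 40.6 and 43.6 CPM. Without T0 replicate 1, a further member was called higher.

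**Figure D4:**
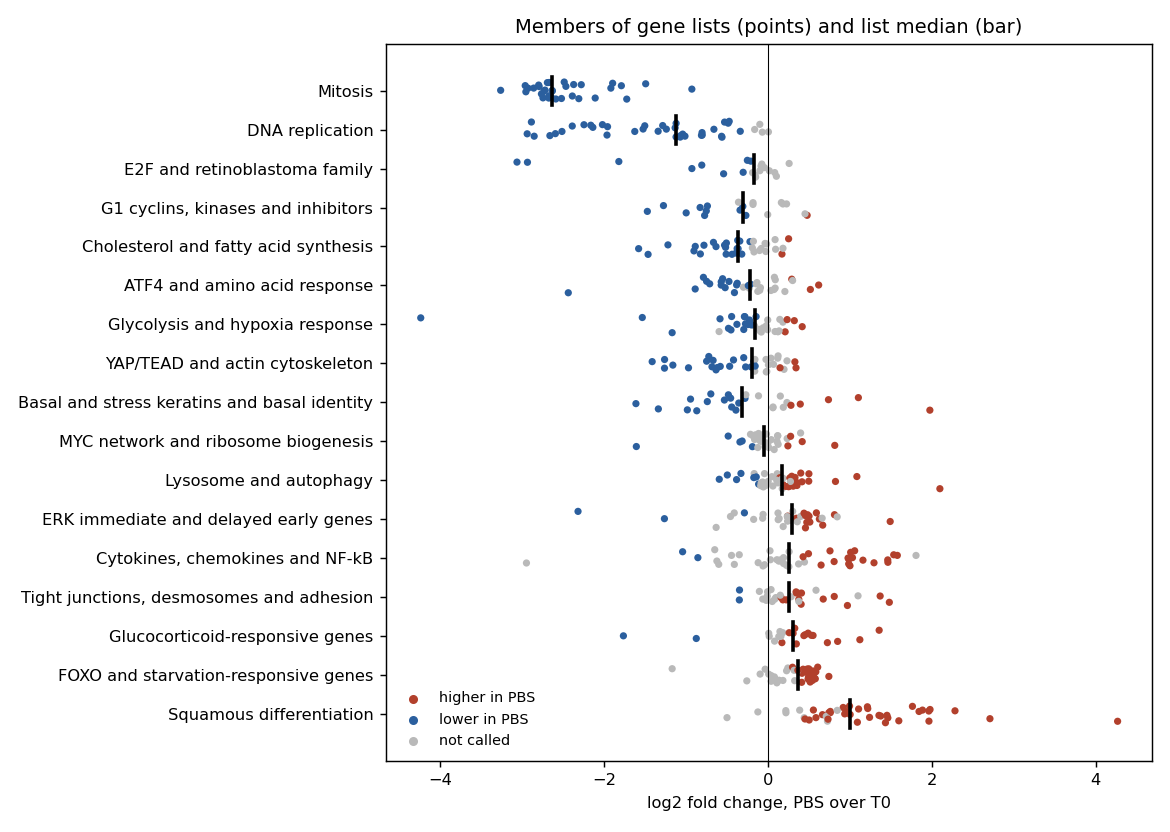
Log2 fold change of PBS over T0 (x axis) of each tested member (points) of 17 gene lists (y axis), with the list median as a black bar. Red points are called higher, blue points lower and grey points not called; all mitosis members are blue at a median of -2.63, and 34 of the 43 squamous members are red at a median of 1.00.

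Squamous differentiation genes rose. Of 46 listed, 43 were tested, and KRT2, LORICRIN and TGM3 had too few counts. Of the 43, 34 were called higher in PBS (against 15.1% of all rows), 0 lower and 9 not called, with a median log2 fold change of 1.00. By over 2-fold, 21 of them rose. KRT10, a keratin of the first suprabasal layer (ENSG00000186395, chromosome 17, 40818117 to 40822614, minus strand), was at 402, 508 and 542 CPM in T0 and 2449, 3213 and 3833 CPM in PBS, a log2 fold change of 2.71 ± 0.26 (SE; edgeR adjusted p 1.7e-07). Its partner KRT1 (ENSG00000167768, chromosome 12, 52674736 to 52680407, minus strand), which pairs with KRT10 in the keratin filaments of the epidermis, was at 5.75, 4.56 and 4.04 CPM in T0 and 80.9, 85.2 and 110.3 CPM in PBS. For both keratins the PBS libraries were all several times above the T0 libraries.

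Envelope genes of several steps rose too. IVL (involucrin), an early scaffold of the cornified envelope, was at 57.2, 60.2 and 49.4 CPM in T0 and 91.3, 116 and 127 CPM in PBS, a log2 fold change of 1.004 ± 0.14 (SE). SPRR3, a small proline-rich envelope precursor, was at 76.1, 101 and 99.9 CPM in T0 and 241, 302 and 399 CPM in PBS, with a log2 fold change of 1.76 ± 0.34 (SE; edgeR adjusted p 0.000482). Of the 43 tested members of the list, 38 had groups that did not overlap, against 46% of all rows. SPRR1A and SPRR2A rose by 1.38 and 1.35 on the log2 scale. Genes of the SPRR family, and keratins among themselves, have similar sequences, and their counts are uncertain where reads could fit several of them. ALOX12B, a lipoxygenase of the skin's lipid barrier, was at 3.64, 4.37 and 6.18 CPM in T0 and 13.8, 15.6 and 26.5 CPM in PBS. TGM5, a transglutaminase, rose by 1.60 ± 0.21 (SE) on the log2 scale.

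CDSN (corneodesmosin), an adhesion protein of cornified cells, needs care because its symbol has 6 rows, of which 4 hold counts. Its named row was at 2.85, 3.26 and 0.793 CPM in T0 and 7.47, 5.49 and 20.96 CPM in PBS, with PBS replicate 3 far above the others (log2 fold change 2.28 ± 0.73; edgeR adjusted p 0.0204). Without PBS replicate 3 the log2 fold change was 1.48 with an edgeR adjusted p of 0.159, and without T0 replicate 3 it was 1.88 with 0.0897. The row was also not called by DESeq2 (adjusted p 0.0791) or with the 6 libraries alone (edgeR adjusted p 0.0886). With the rows of each symbol summed it was 2.11 (edgeR adjusted p 0.000399), where the adjusted p over all alternatives of this gene, DESeq2 included, ran from 0.000399 to 0.608. The summed level went from 4.45 ± 0.392 to 19.3 ± 5.98 counts per 1 M of all counts (SD, n = 3).

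Some members of the list were low, rose by less or were not called. FLG (filaggrin), of the granular layer, was at 11.4, 11.1 and 11.6 CPM in T0 and 17.4, 13.7 and 17.1 CPM in PBS, a log2 fold change of 0.50 ± 0.14 (SE; edgeR adjusted p 0.00653). CASP14, a caspase of cornifying cells, stayed under 1 CPM in all 6 libraries. TGM1, the main envelope transglutaminase, at 72.1, 88.1 and 114 CPM in T0 and 98.2, 122 and 139 CPM in PBS, had overlapping groups and was not called. Among the transcription factors of the list, KLF4 rose by 0.45, OVOL1 by 0.59, GRHL1 by 0.73 and PRDM1 by 1.22 on the log2 scale. GRHL3 had a log2 fold change of -0.12 ± 0.13 (SE) and was not called.

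Of the 32 squamous genes with a RefSeq window, 10 (31.2%) held AP-1 letters, against 3.46% of the 11510 windows, 2 held E2F letters and 4 CHR letters. AP-1 letters were in 4.1% of the windows of all genes called higher and in 9.31% of those higher by over 2-fold. For genes called lower the shares were 3.15% and, by over 2-fold, 5.12%. The windows of KRT10, among the largest rises, and of SPRR3, picked after its AP-1 letters were seen, are printed for comparison with the cell cycle promoters above.
KRT10 (chr17:40822565-40822864, minus strand): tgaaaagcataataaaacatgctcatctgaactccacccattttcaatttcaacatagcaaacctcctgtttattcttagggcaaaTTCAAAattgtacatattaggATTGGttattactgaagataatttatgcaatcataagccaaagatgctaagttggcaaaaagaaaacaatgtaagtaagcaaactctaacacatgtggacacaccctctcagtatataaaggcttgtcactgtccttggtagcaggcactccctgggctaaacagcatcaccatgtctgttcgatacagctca
SPRR3 (chr1:153001499-153001798, plus strand): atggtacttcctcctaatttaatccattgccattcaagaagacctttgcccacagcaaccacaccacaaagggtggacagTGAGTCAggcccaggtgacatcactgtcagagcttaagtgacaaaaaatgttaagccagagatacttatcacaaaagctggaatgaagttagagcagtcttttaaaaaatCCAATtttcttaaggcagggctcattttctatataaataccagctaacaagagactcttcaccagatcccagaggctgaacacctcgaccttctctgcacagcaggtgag
The SPRR3 AP-1 letters begin 170 bases before the start. The KRT10 window has a CHR match, on the other strand, from 164 bases and a CCAAT match from 143 bases before the start although KRT10 rose, and it has no AP-1 letters. The CDSN window held none of the letters searched.

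Basal genes moved the other way. Of 26 tested basal members, 14 were lower, 5 higher and 7 not called, with a median of -0.32; the number higher was 3 without PBS replicate 2, PBS replicate 3 or T0 replicate 3. S100A2, a calcium-binding protein of basal cells, was at 2807, 2546 and 2985 CPM in T0 and 941, 889.7 and 903 CPM in PBS, a log2 fold change of -1.61 ± 0.079 (SE; edgeR adjusted p 2.1e-12). KRT14, the basal keratin, was at 1192, 1215 and 1505 CPM in T0 and 560.5, 669 and 751 CPM in PBS. LAMB3, a chain of laminin-332, and the integrin subunit ITGA6, which anchor basal cells to the basement membrane, fell with log2 fold changes of -0.87 ± 0.10 and -0.74 ± 0.089 (SE). Against this direction, KRT16, a keratin of stressed and activated epidermis, rose from 1075, 1107 and 806 CPM to 1987, 2413 and 2023 CPM, and MME (CD10), a surface peptidase of basal and myoepithelial cells, from 95.2, 92.4 and 71.4 CPM to 339, 359 and 322 CPM. So the list did not move as a block.

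Junction and luminal genes were mixed, with more rises than falls. Of 30 junction and desmosome genes tested, 13 were higher and 2 lower (median 0.25), but only 7 were higher without T0 replicate 3. GJB2 (connexin 26) was at 14.9, 16.6 and 17.9 CPM in T0 and 36.5, 37.9 and 53.2 CPM in PBS, and the tight junction gene CLDN4 at 64.8, 88.7 and 59.1 CPM and 134, 158 and 125 CPM. Of the 19 luminal markers tested, of 27 listed, 7 were higher and 4 lower (median 0.39). Those that rose included the factor EHF (0.97 ± 0.18), ALDH1A3 (0.88 ± 0.10) and MUC1 (0.71 ± 0.16), and those that fell were the luminal keratins KRT7, KRT8 and KRT18 and the adhesion molecule EPCAM (-0.76 ± 0.13; log2 fold change ± SE). PGR, ELF5 and SPDEF were among the 8 with too few counts.

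The 12 rows with the highest log2 fold changes under the same rule as above were KRT1, KRT10, CDSN, PLA2G4D, MUC16, MMP7, FBLN5, AZGP1, GPNMB, POF1B, DSG4 and ALOX12B. FBLN5 (fibulin-5), an elastic fibre protein (ENSG00000140092, chromosome 14, 91869411 to 91947987, minus strand), had the smallest standard error, at 4.09, 3.22 and 2.59 CPM in T0 and 15.01, 14.9 and 14.2 CPM in PBS (log2 fold change 2.15 ± 0.12; edgeR adjusted p 6.69e-12). DSG4, a desmosomal cadherin (ENSG00000175065, chromosome 18, 31376777 to 31414912, plus strand), was at 9.97, 10.4 and 6.72 CPM in T0 and 32.3, 42.4 and 39.99 CPM in PBS. MMP7 (matrilysin), an epithelial metalloproteinase, was at 8.56, 10.7 and 6.95 CPM in T0 and 33.6, 43.5 and 40.7 CPM in PBS. These 3 genes had every PBS library at more than 3 times every T0 library. MUC16, a membrane mucin, was at 40.1, 48.5 and 44.8 CPM in T0 and 227, 141 and 244 CPM in PBS, where PBS replicate 2 was lowest. AZGP1, a secreted lipid-mobilizing glycoprotein, rose by 2.10 ± 0.37, PLA2G4D, a phospholipase of stratified epithelia, by 2.21 ± 0.26, and POF1B, an actin-binding protein of epithelia, by 2.09 ± 0.21 (SE) on the log2 scale.

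FOXO and starvation-responsive genes rose by small amounts. Of 37 tested, 20 were called higher (against 15.1% of all rows) and 0 lower, with a median of 0.37, and none rose by over 2-fold. Without T0 replicate 3, 12 were called higher. FOXO3, a FOXO factor itself, was at 178, 171 and 147 CPM in T0 and 286, 275 and 269.9 CPM in PBS, a log2 fold change of 0.74 ± 0.083 (SE; edgeR adjusted p 2.6e-07). FOXO1 was at 147, 159 and 139 CPM in T0 and 222, 203 and 206 CPM in PBS. In both genes every PBS library was higher than every T0 library. The insulin pathway genes INSR, IRS1 and IRS2 rose by 0.50, 0.52 and 0.43 on the log2 scale.

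Other FOXO targets were spread in T0. TXNIP, an inhibitor of thioredoxin and of glucose uptake, was at 1199, 710.04 and 615 CPM in T0 and 1285, 1301 and 1199.8 CPM in PBS, so T0 replicate 1 all but reached the lowest PBS library (log2 fold change 0.59 ± 0.19; edgeR adjusted p 0.0222). PDK4, which restrains pyruvate oxidation, at 473, 373 and 303 CPM in T0 and 523, 454 and 464 CPM in PBS, had overlapping groups and was not called (edgeR adjusted p 0.145). Likewise FBXO32 (atrogin-1; 0.36 ± 0.26), CCNG2 (0.18 ± 0.085), BCL2L11 (BIM; 0.14 ± 0.12) and SESN1 (0.010 ± 0.094) did not pass.

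Lysosome and autophagy genes were mixed. Of 45, 20 were higher and 7 lower (median 0.17), with 12 higher without T0 replicate 3 and 4 lower without PBS replicate 3 or without T0 replicate 3. GPNMB, a glycoprotein of lysosomes and melanosomes, was at 26.7, 21.7 and 14.2 CPM in T0 and 94.8, 94.5 and 79.5 CPM in PBS, a log2 fold change of 2.10 ± 0.21 (SE). PSAP, the precursor of the saposins that help degrade sphingolipids, was at 1665, 1594 and 1429.6 CPM in T0 and 2210.4, 2289 and 2134 CPM in PBS. The protease gene CTSS rose by 1.09 ± 0.23 on the log2 scale, while GLA and CTSZ fell (log2 fold changes -0.59 ± 0.11 and -0.49 ± 0.045).

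Early response genes of the ERK pathway were not lower as a list. Of 38, 16 were higher, 3 lower and 19 not called, with a median of 0.29; 6 were lower without T0 replicate 1. FOS, a subunit of AP-1, was at 7.56, 12.2 and 9.96 CPM in T0 and 26.7, 29.5 and 27.4 CPM in PBS, a log2 fold change of 1.49 ± 0.11 (SE; edgeR adjusted p 3.23e-10). The AP-1 genes JUN and JUNB rose by 0.63 and 0.67 and FOSL2 by 0.45 on the log2 scale. Every PBS library was above every T0 library for each of them. The members that fell were ETV5, an ETS factor kept up by receptor tyrosine kinases, at 5.96, 5.86 and 7.65 CPM in T0 and 2.77, 2.91 and 2.397 CPM in PBS, TFPI2, at under 2 CPM in all 6 libraries, and MYADM (-0.29 ± 0.086). The ERK feedback phosphatase DUSP6, at 2.83, 5.03 and 6.904 CPM in T0 and 5.82, 5.102 and 5.26 CPM in PBS, had overlapping groups (edgeR adjusted p 0.687), and EGR1 had a log2 fold change of -0.41 ± 0.17 (edgeR adjusted p 0.0722).

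The ligands and receptors of the EGF family moved singly. Of 19 tested, 3 (15.8%) were higher and 3 (15.8%) lower, near the 15.1% and 17.8% of all rows. The list median was 0.058, 13 members were not called and ERBB4 had too few counts. AREG (amphiregulin), an autocrine EGF receptor ligand of mammary epithelium, was at 20.8, 30.6 and 31.1 CPM in T0 and 12.01, 10.9 and 9.37 CPM in PBS, a log2 fold change of -1.35 ± 0.25 (SE; edgeR adjusted p 0.000245). TGFA, another ligand, was at 44.8, 48.98 and 41.6 CPM in T0 and 61.3, 64.8 and 63.1 CPM in PBS. The fall of AREG and the rise of TGFA were both without overlap between the groups. Of the receptors, EGFR was at 452, 470.1 and 519 CPM in T0 and 398, 373 and 408 CPM in PBS and ERBB3 at 89.2, 91.3 and 73.7 CPM and 134, 146 and 138 CPM. ERBB3, a neuregulin receptor repressed by PI3K signalling, rose by 0.72 ± 0.15 and EGFR fell by 0.29 ± 0.055 (SE) on the log2 scale. ERBB2 (0.14 ± 0.063) and HBEGF (0.026 ± 0.10) were not called.

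Lipid synthesis genes fell. Of 34 cholesterol and fatty acid synthesis genes tested, of 35 listed, 21 were lower (against 17.8% of all rows), 2 higher and 11 not called, with a median of -0.37. The 2 that rose, FASN (0.25 ± 0.080) and SCAP (0.17 ± 0.055), were not called without PBS replicate 2, PBS replicate 3 or T0 replicate 1. FADS2 and FADS1, the desaturases of polyunsaturated fatty acids, were at 42.2, 32.99 and 45.8 and 47.8, 41.7 and 52.7 CPM in T0 and at 13.2, 13.4 and 13.9 and 18.1, 15.7 and 17.9 CPM in PBS. For both genes every PBS library was lower than every T0 library by more than 2-fold. HMGCS1, a synthase early in the cholesterol pathway, had a log2 fold change of -0.82 ± 0.17 (SE).

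Amino acid genes were lower as well. Of 32 genes of the ATF4 and amino acid list, 15 were lower and 3 higher (median -0.22). PHGDH, the first enzyme of serine synthesis, was at 26.3, 20.97 and 25.1 CPM in T0 and 4.42, 4.43 and 4.52 CPM in PBS, a log2 fold change of -2.43 ± 0.15 (SE; edgeR adjusted p 3.06e-11). SLC7A5, a transporter of large neutral amino acids, was at 3608, 3472 and 4232 CPM in T0 and 1918, 1921 and 2279.6 CPM in PBS. ATF4 itself, the factor that activates many of these genes, rose by 0.29 ± 0.061 (SE) on the log2 scale, so the gene of the factor and most called members moved in opposite directions.

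Energy genes changed unevenly by list. Of 35 glycolysis and hypoxia genes, 17 were lower and 4 higher (median -0.16), and only 2 were higher without PBS replicate 1, PBS replicate 2, T0 replicate 2 or T0 replicate 3. LDHA (lactate dehydrogenase A; the larger of 2 rows) was at 589.8, 551 and 615 CPM in T0 and 387, 401 and 384 CPM in PBS, and GAPDH fell by 0.48 ± 0.051 (SE) on the log2 scale. Of 36 nuclear genes of oxidative phosphorylation, 10 were lower and 2 higher (median -0.036), with 6 lower without T0 replicate 3. The number higher was 0 without PBS replicate 2, PBS replicate 3, T0 replicate 1 or the filter on low counts, and 1 without PBS replicate 1 or T0 replicate 2 or with the 6 libraries alone. Of the 13 mitochondrially encoded genes 1, MT-ND2, was higher (0.32 ± 0.092), and it was not called without PBS replicate 1. That number was 3 with relative log expression scaling or with rows of a symbol summed, 4 by DESeq2 and 6 with the 6 libraries alone. Of 32 genes of the MYC network and ribosome biogenesis, 5 (15.6%) were lower and 4 (12.5%) higher (median -0.042). These shares were near the 17.8% and 15.1% of all rows. MYC had a log2 fold change of -0.11 ± 0.088 (SE; edgeR adjusted p 0.395). MXD1, a MAX partner that opposes MYC and is made in differentiating epithelium, was at 35.4, 36.6 and 34.4 CPM in T0 and 58.4, 60.7 and 68.3 CPM in PBS. MXD3, a relative expressed in proliferating cells, fell by 1.60 ± 0.21 (SE) on the log2 scale.

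Genes of the actin cytoskeleton and YAP targets fell. Of 34 tested, 19 were lower and 3 higher (median -0.19), and 1 was higher without PBS replicate 2. FLNA, the actin cross-linker filamin A, was at 987, 923 and 1051 CPM in T0 and 388, 336 and 390.1 CPM in PBS, a log2 fold change of -1.41 ± 0.076 (SE; edgeR adjusted p 6.34e-12). ACTB, a cytoplasmic actin whose reads may be shared with its close relatives, was at 2818, 2886 and 3352 CPM in T0 and 1495, 1526 and 1609 CPM in PBS. Both genes had every PBS library well below every T0 library. THBS1 (thrombospondin-1) and CCN2, a YAP and TGFB target, had log2 fold changes of -1.26 ± 0.23 and -0.47 ± 0.18 (SE).

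Matrix genes split. Of 34, 11 were lower and 7 higher (median -0.056). TIMP1, an inhibitor of matrix metalloproteinases, was at 594, 493 and 599 CPM in T0 and 157, 149 and 153 CPM in PBS, a log2 fold change of -1.88 ± 0.087 (SE; edgeR adjusted p 1.31e-12). COL4A2, a basement membrane collagen, and PLAT, a plasminogen activator, had log2 fold changes of -1.22 ± 0.10 and -1.18 ± 0.14, while LOX, a collagen cross-linking enzyme, and HSPG2, the basement membrane proteoglycan perlecan, rose by 0.86 and 0.67 on the log2 scale. Of 24 genes of the mesenchymal list, 7 were lower and 7 higher (median -0.012). VIM (vimentin) was at 656, 653 and 625 CPM in T0 and 442, 418 and 394 CPM in PBS and SPARC fell by 1.65 ± 0.13. COL6A1, a chain of collagen VI, was at 19.7, 18.99 and 16.7 CPM in T0 and 51.7, 65.7 and 68.1 CPM in PBS and so rose in all 3 libraries. Of 28 TGFB and SMAD targets, 9 were higher and 5 lower (median 0.10). The number lower was 2 without PBS replicate 1, PBS replicate 2 or T0 replicate 3, and 3 without T0 replicate 2. The pathway antagonists SMAD6 and BAMBI rose by 0.82 and 0.72 on the log2 scale.

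Members of the cytokine, chemokine and NF-kB list that passed the test mostly rose. Of 43 cytokine, chemokine and NF-kB genes, 18 were higher (against 15.1% of all rows) and 2 lower (median 0.26), and 1 was lower without PBS replicate 2. S100A8 and S100A9, the subunits of calprotectin, were at 96.5, 95.2 and 86.5 and 202, 194 and 167 CPM in T0 and at 253, 231 and 284 and 514, 530.4 and 588 CPM in PBS. LCN2 (lipocalin-2), which binds bacterial siderophores, was at 20.4, 24.8 and 12.3 CPM in T0 and 56.2, 70.8 and 45.4 CPM in PBS. In these 3 genes of the list, none of them a chemokine or interleukin, the lowest PBS library was well above the highest T0 library. The 10 leukocyte markers were not called: CD68, CD14 and ITGAM were tested and the other 7 had too few counts. Of 23 complement and acute phase genes, 7 were higher and 4 lower (median -0.029). C3, the central complement component, was at 467, 479 and 528 CPM in T0 and 932, 1168 and 1063 CPM in PBS, and SERPINA3 (antichymotrypsin) at 196, 194 and 133 CPM and 568, 702 and 490.01 CPM. SERPINA1 (antitrypsin; the larger of 2 rows) fell from 29.4, 26.6 and 28.8 CPM to 9.31, 10.2 and 10.4 CPM.

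Glucocorticoid-responsive genes were followed because the growth medium held hydrocortisone. Of 23, 14 were higher and 2 lower (median 0.31). HSD11B2, which inactivates cortisol, was at 170.5, 226 and 179.6 CPM in T0 and 395, 528 and 553 CPM in PBS, a log2 fold change of 1.36 ± 0.20 (SE; edgeR adjusted p 2.12e-05). GLUL, glutamine synthetase, was at 2036, 2046 and 1582 CPM in T0 and 3330.1, 3749 and 3138 CPM in PBS. The widely used target FKBP5 rose by 0.33 ± 0.049 (SE) on the log2 scale. MT2A, a metallothionein, fell from 1019, 1097 and 1193 CPM to 381, 225 and 369.9 CPM, while its relative MT1X rose by 0.53 ± 0.079. Metallothionein genes are similar in sequence, which leaves their separate counts uncertain. Whether hydrocortisone was present in either group's medium is not given in the labels.

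The changes were then set beside a comparison that shares no library with them: EGF with TGFB against TGFB alone, where the difference is the addition of EGF for 24 h. In that comparison 32.7% of all rows were higher and 34.1% lower. Of the 2949 rows lower in PBS than in T0, 2061 (69.9%) were higher with EGF added and 399 (13.5%) lower, with a median log2 fold change of 0.56. Of the 2515 rows higher in PBS, 1620 (64.4%) were lower with EGF added and 421 (16.7%) higher, with a median of -0.41. Rows not called between PBS and T0 stood at 26.5% higher and 32.7% lower. Across the 16611 rows, which are not independent replicates, Pearson's r between the log2 fold changes was -0.42.

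By list, all 33 mitosis genes and 39 of 40 replication genes were higher with EGF added, 42 of 43 squamous genes were lower, and 31 of 37 FOXO genes were lower. Of the lipid synthesis genes, 28 of 34 were higher, and of the actin and YAP genes 30 of 34. Single genes showed where the comparisons differed in size. MKI67 changed by -2.73 ± 0.24 between T0 and PBS and by 4.29 with EGF added, and KRT10 by 2.71 ± 0.26 and -4.17 (log2 fold changes). The FOXO targets PDK4 and FBXO32, which were not called between T0 and PBS, changed by -4.76 and -4.71 with EGF added. FOS moved the other way from ETV5 and DUSP6 there: it had -1.05, and they had 2.32 and 2.56. TGFB was present on both sides of this comparison, and no test of the difference between the 2 comparisons was run.

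**Figure D5:**
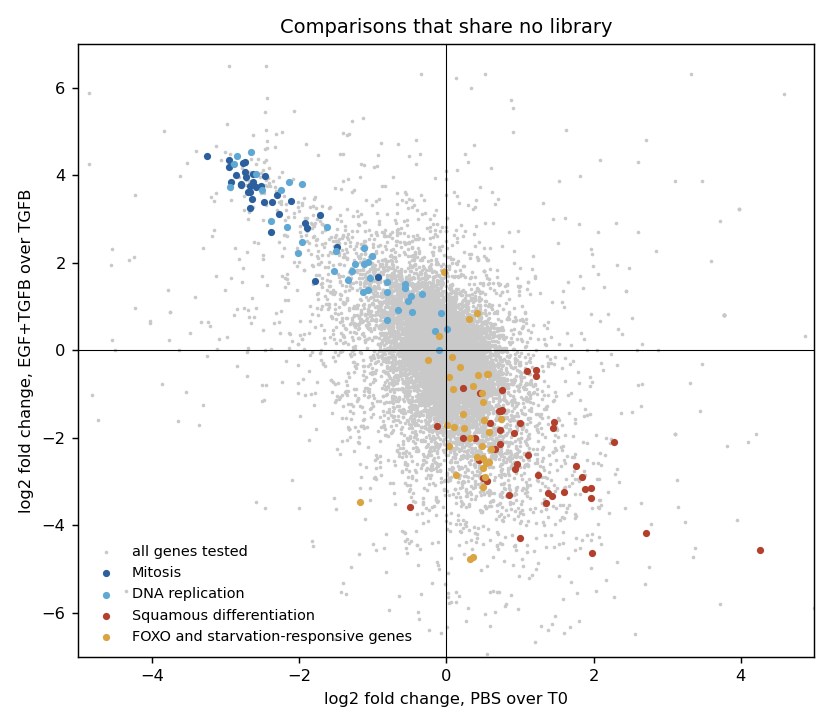
Log2 fold change of PBS over T0 (x axis) against that of EGF+TGFB over TGFB (y axis) for all rows tested (grey) and the members of 4 gene lists (colours), with 35 rows beyond the axes not drawn. Mitosis and replication genes lie at the upper left, squamous genes at the lower right, and FOXO genes near 0 on the x axis but mostly below 0 on the y axis; Pearson's r over all rows was -0.42.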

How the data were processed

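Libraries of polyadenylated MCF10A RNA were made with a stranded kit (labels' protocols). The values the authors deposited are estimated counts per gene, whole numbers as deposited, so rounding changed nothing. Trim Galore 0.4.3, kallisto 0.46.2 and the build GRCh38.p5 are named in the submitters' processing notes; the strand setting and annotation release are not given in the sources used here, so reads of overlapping genes may not be told apart. Of 40487 rows, 16611 passed filterByExpr by group. The 27 libraries were fitted together in edgeR 4.0.16 (TMM scaling, quasi-likelihood, a mean for each of 9 groups, 18 residual degrees of freedom, biological coefficient of variation 10.1%), and PBS was compared with T0. Where a symbol has several rows, the row with most counts stands for it. Replicates differed by more than sampling noise (chi-square per degree of freedom 10.9 to 18.9), and each counted once. The code was tested on simulated data. The genes named are the 12 highest and 12 lowest called symbols with a mean of at least 5 CPM and groups without overlap, and members of 36 lists, up to 6 called in each direction and the defining ones. Some members are not reported here. Of the promoter windows printed, 3 were picked by rule and 3 after their letters were seen. The rule also picked the windows of AURKB, TK1 and CDSN, which are described but not printed. The lists and members were chosen with earlier results of these data known. Gene coordinates are from GENCODE v44 and sequences from RefSeq (GRCh38.p14). Alternatives were other scalings, no filter, DESeq2 1.42.0, the 6 libraries alone, a replicate block, a 2-fold limit, rows of a symbol summed, and each library left out in turn. No molecular identifiers were recorded, so counting error is a lower limit.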

Additional observations from a re-analysis of the deposited data

How the results depend on the processing

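Over the alternatives other than a test against a 2-fold change, 4383 (without T0 replicate 3) to 6206 (replicate block) rows were called between PBS and T0, where the values above rest on 5464, and 43.4 to 49.1% of the called rows were higher. DESeq2 called 5624, the 6 libraries alone 5138 and the fit without a filter 4756. Against a 2-fold change, edgeR called 245 rows (41 higher, 204 lower), 15 replication genes lower, 0 FOXO genes higher, 0 lipid synthesis genes higher and 2 lower, 3 squamous genes higher, and 180 of the rows lower in PBS as higher with EGF added to TGFB. With the PBS and T0 libraries alone, 1 FOXO and 1 squamous gene were called lower, as was 1 FOXO gene with the replicate block. The labels do not say what the replicate numbers share. Deviations of same-numbered PBS and T0 libraries from their group means correlated at 0.0892, 0.0202 and 0.0459, and each library correlated best with its own number except T0 replicate 2, which did so with PBS replicate 3. The second principal component (15.6% of the variance) placed replicate 1 highest and replicate 3 lowest in both groups. A shared source of same-numbered libraries was not tested. The block gave 2919 higher and 3287 lower. It also gave 9 MYC network, 12 antioxidant and 5 cell death genes lower, and 10 interferon, 7 histone, 5 nuclear oxidative phosphorylation, 4 mitochondrially encoded, 4 p53 and 3 G1 genes higher. DESeq2 called 5 ERK genes lower, 7 histone genes higher and 4 mitochondrially encoded genes higher, and the 6 libraries alone 2 TGFB and SMAD targets and 1 glucocorticoid-responsive gene lower. Leaving out each library in turn gave 12 to 22 FOXO genes higher and 0 to 3 lipid synthesis genes higher. Medians near 0 changed sign in 5 of the 32 lists: Notch and WNT (-0.0070, up to 0.033), complement (-0.029, to 0.015), mesenchymal (-0.012, up to 0.041), nuclear oxidative phosphorylation (-0.036, up to 0.011) and p53 targets (0.023, down to -0.077). The median of all rows (-0.0069) was 0.0026 with relative log expression scaling. Of 336 values of single genes over the alternatives, 0 changed sign and 7 lost their call: CDSN in 5, and MUC16 and ALOX12B against a 2-fold change. The median of all rows moved by less than 0.1 (log2) under every scaling tried. Totals of 35.8 to 48.4 M (mega) counts leave genes under about 1 CPM with few counts, and 3 replicates a group limit what small changes can be called.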

Other observations

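Some listed genes outside the groups above also differed between T0 and PBS, given here as values. Of 34 Notch and WNT genes tested, 7 (20.6%) were lower and 4 (11.8%) higher (median -0.0070). These shares were near the 17.8% and 15.1% of all rows. SFRP1, a secreted WNT inhibitor, was at 402, 401 and 429.7 CPM in T0 and 229.9, 236 and 239 CPM in PBS, a log2 fold change of -0.81 ± 0.053 (SE; edgeR adjusted p 1.19e-10). The WNT feedback target AXIN2, at 0.809, 1.07 and 1.24 CPM in T0 and 2.397, 2.26 and 2.62 CPM in PBS, and the ligand WNT7B, at 4.45, 4.41 and 4.105 CPM and 7.79, 8.29 and 8.93 CPM, rose by 1.22 ± 0.28 and 0.95 ± 0.15 (SE) on the log2 scale. The Notch modifier LFNG fell by 0.58 ± 0.076. For each of these 4 genes the groups did not overlap, as in 46% of all rows.

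Of 33 antioxidant and detoxification genes, 8 were higher and 7 lower (median -0.054). GPX2, an epithelial glutathione peroxidase, was at 16.3, 20.6 and 20.5 CPM in T0 and 67.6, 77.7 and 79.6 CPM in PBS, and the transporter ABCC3 at 94.95, 98.6 and 122 CPM and 43.2, 39.7 and 49.3 CPM. Of 21 JAK and STAT genes, 10 were higher and 2 lower (median 0.25), the latter including OSMR, the receptor subunit for oncostatin M, at 121, 123 and 121 CPM in T0 and 83.96, 79.8 and 75.7 CPM in PBS. Of 45 interferon response genes, 6 (13.3%) were higher and 9 (20.0%) lower (median 0.063), near the 15.1% and 17.8% of all rows. The interferon-induced IFITM genes, which have near-identical relatives, were among those lower. Of 24 cell death genes, 7 were higher and 3 lower (median 0.11), with the BH3-only genes BMF and HRK at log2 fold changes of 0.72 ± 0.19 and 0.92 ± 0.25. Of 26 p53 targets, 2 (7.69%) were higher and 5 (19.2%) lower (median 0.023), against 15.1% and 17.8% of all rows. Without PBS replicate 1 or T0 replicate 2, 3 were lower, and 0 were higher without PBS replicate 1, PBS replicate 2 or T0 replicate 1, and 1 without T0 replicate 3. DDB2, a DNA repair gene of that list, fell by 0.72 ± 0.10. Of 22 replication-dependent histone genes tested, 4 (18.2%) were higher, near the 15.1% of all rows, and 0 lower (median 0.26). With PBS replicate 1, 2 or 3 or T0 replicate 1 or 3 left out, 1 or 2 were higher. Most transcripts of these genes lack a poly(A) tail, so selection of polyadenylated RNA samples them in part.

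Among the markers of other cell types, KDR, an endothelial receptor gene, was at 16.5, 16.1 and 15.6 CPM in T0 and 28.6, 31.2 and 30.7 CPM in PBS and rose by 0.91 ± 0.13 (SE; edgeR adjusted p 6.63e-06), while the endothelial markers CLDN5, CDH5 and PLVAP were too low to test, with CLDN5 at 0 counts. Of the 7 endothelial markers tested, ERG was called lower, from a mean of 0.119 to 0.00718 CPM with at most 8 counts in a library, and 5 were not called. Of the 6 fibroblast markers tested, COL1A1 was higher, from 28.6, 26.9 and 27.9 CPM to 37.4, 36.1 and 42.7 CPM, FAP and PDGFRB were lower by 0.87 ± 0.14 and 0.79 ± 0.29 on the log2 scale, and 3 were not called. Of these 3, DCN was at 76.5, 84.9 and 76.4 CPM in T0 and 95.2, 93.99 and 85.4 CPM in PBS. COL3A1 had 0 counts in all 6 libraries.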
